A study of Mus musculus with 18 samples.

Results

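The cytochrome P450 genes of mouse kidney cortex were followed across 2 genotypes and 3 treatments. Members were the rows of the expression table whose name begins with Cyp and a digit, selected on their own level, at 1 RPKM (reads scaled by transcript length and library depth) or more in at least 3 of 18 libraries. Of 104 such rows among 24062 genes, 39 qualified, from 12 families and 23 subfamilies. The Klf15PTKO mice (PTKO) lack Klf15, a zinc finger transcription factor, in the proximal tubule, and the Klf15fl/fl mice (fl/fl) carry the floxed alleles, both on C57Bl/6. Each genotype was given DMSO, the vehicle, or aristolochic acid I, a plant toxin taken up by proximal tubule cells. The toxin was given for 2 weeks (AA 2wk) or for 2 weeks followed by 2 weeks of remodeling (AA 4wk). Each of the 6 groups has 3 libraries, of total RNA from kidney cortex. Neither the Cre line nor the exons removed are given, and no animals with Cre but unaltered Klf15 are listed, so loss of Klf15 and the presence of Cre cannot be told apart. Age, the week of the DMSO libraries and whether replicates are separate mice are not stated, so p-values measure the spread between these samples.

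Cytochrome P450 enzymes are heme proteins that insert oxygen into lipids, steroids, vitamins and foreign chemicals. Most sit in the endoplasmic reticulum and receive electrons from P450 oxidoreductase, while a smaller set sits in mitochondria and is served by ferredoxin. Families 1 to 3 are best known for foreign compounds, family 4 for oxidising the far end of fatty acids, and others act on single sterols, retinoids or forms of vitamin D. In the kidney most of these enzymes are known from the proximal tubule, where they also make lipid mediators from arachidonic acid.

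Depth was 10980251 to 21922317 reads a library, recovered from the steps between the values. Klf15 itself, from low to high, was at 28.5, 31.9 and 32.6 RPKM in PTKO DMSO libraries, against 53.0, 61.3 and 65.5 in fl/fl DMSO libraries. It was at 12.5 to 25.6 in PTKO AA 2wk, against 18.6 to 41.3 in fl/fl AA 2wk, and at 8.81 to 9.53 in PTKO AA 4wk, against 11.6 to 18.8 in fl/fl AA 4wk. The 2 AA 2wk libraries numbered 3 stood apart from the other AA libraries on the first principal component, at -7.1 (PTKO) and -7.3 (fl/fl), against 34 to 65.9 for the other AA libraries and -90 to -66.1 for DMSO. The summed level of 18 proximal tubule marker genes was 3021 to 6608 RPKM in PTKO AA 2wk, 2006 to 4014 in PTKO AA 4wk and 57895 to 62664 in PTKO DMSO. In fl/fl mice it was 4136 to 8405 in AA 2wk, 3724 to 5454 in AA 4wk and 50784 to 63792 in DMSO. In a bulk sample, fewer cells of a type and less RNA per cell cannot be told apart. Most of the DMSO sum is 1 gene, Kap, which averaged 48289.8 ± 3204 RPKM in PTKO DMSO (SD, n = 3). By gene, 15, 15, 18 and 15 of the 18 fell in PTKO AA 2wk, fl/fl AA 2wk, PTKO AA 4wk and fl/fl AA 4wk, with median log2 changes of -1.96, -1.92, -2.59 and -2.09. Over all tested genes, 14.3%, 12.2%, 17.3% and 14.3% fell in the same order. The share that this loss of marker RNA has in the P450 results was not tested. No marker of that list was at 0 in any group.

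A few genes held most of the P450 RNA. Cyp4b1, which oxidises fatty acids and activates some protoxins, alone made up 42.5% of the summed RPKM of the members in PTKO DMSO cortex and 38.9% in fl/fl DMSO cortex. Cyp2e1, the ethanol-oxidising enzyme, held 14.4% in PTKO DMSO and 21.0% in fl/fl DMSO, and Cyp2j5, an arachidonic acid epoxygenase abundant in mouse kidney, held 14.5% and 12% in the same groups. The next members by mean RPKM over the libraries were Cyp2d26 (116), Cyp4a31 (98.6), Cyp2a4 (84.6), Cyp4a10 (71.4), Cyp2j11 (64.6), Cyp2j13 (59.5) and Cyp7b1 (48.0). Of the 39 members, 29 were at 1 RPKM or more in every library.

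Of the members, 3 passed through 1 side only. Cyp4a32 reached 1 RPKM in DMSO libraries only, and Cyp3a13 and Cyp4f18 in AA libraries only. The direction of their changes is therefore tied to the choice of members and is not read as a result. For Cyp3a13 no fl/fl AA 2wk library reached 1 RPKM, so the choice does not fix its rise in that group. Just inside the threshold was Cyp46a1, with values of 1 RPKM or more in 3 libraries (1.63, 1.11 and 1.07). Just outside were Cyp2r1, a vitamin D hydroxylase, which passed in 2 libraries (1.41 in PTKO AA 2wk and 1.11 in fl/fl AA 2wk), and Cyp4f14 (1.01) and Cyp2c69 (1.04), which passed in 1 fl/fl DMSO library each. The other non-members, 65 with these 3, included the steroid hormone P450s, Cyp1a1 and Cyp1a2, and 15 rows were listed at 0 in every library.

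The summed RPKM of the members was 4896, 5029 and 4897 in PTKO DMSO libraries, 943, 1005 and 1575 in PTKO AA 2wk libraries, and 1028, 642 and 884 in PTKO AA 4wk libraries. In fl/fl mice it was 6239, 4987 and 6902 with DMSO, 1265, 1033 and 1875 at AA 2wk, and 1350.4, 1079.8 and 1368 at AA 4wk. No AA library came near a DMSO library of its genotype. The mean sum was 23.8% of the DMSO mean at AA 2wk and 17.2% at AA 4wk in PTKO mice, and 23.0% and 21.0% in fl/fl mice. Subfamilies did not share this loss equally. Cyp4b fell to 8.65% (AA 2wk) and 3.7% (AA 4wk) of its DMSO mean in PTKO cortex and to 7.06% and 5.55% in fl/fl cortex, while Cyp4f stood at 115% and 153% in PTKO and at 122% and 134% in fl/fl. The Cyp4f sum includes Cyp4f18, which passed through AA libraries only, so part of its rise describes the choice of members. Cyp2d stood at 69.7% and 39.0% in PTKO and 59.9% and 55.2% in fl/fl.

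**Figure D1:**
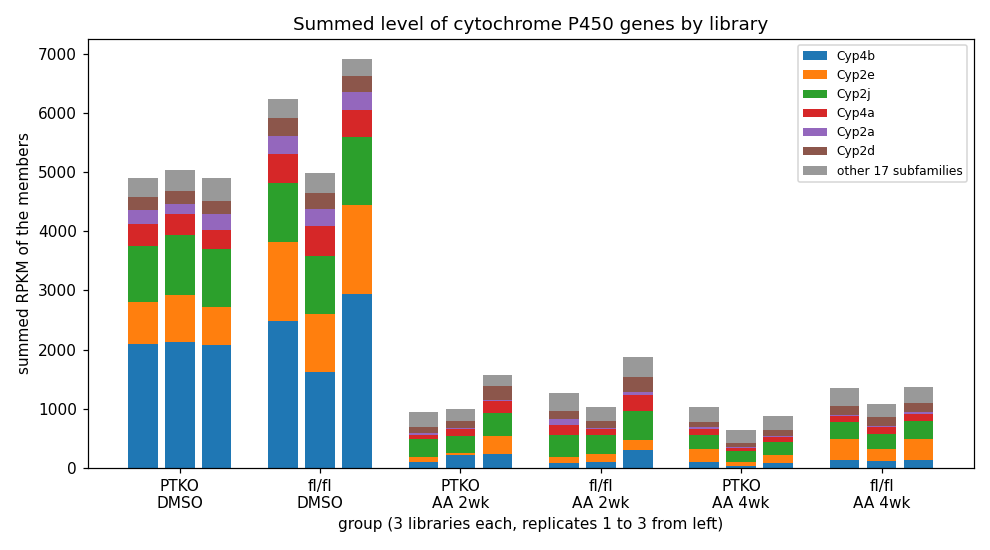
Summed RPKM of the 39 P450 genes in each library (y axis), stacked by subfamily, with the 3 libraries of each group side by side. Every DMSO library stands at 4896 or above and every AA library at 1875 or below.

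Against DMSO, more P450 genes fell than rose in both genotypes and at both times, while most of the genes that changed across the transcriptome rose. In PTKO AA 2wk cortex 17 members fell (43.6%, against 14.3% of the 13624 genes tested) and 9 rose (23.1%, against 45.9%). In fl/fl AA 2wk cortex 18 fell (46.2%, against 12.2%) and 10 rose (25.6%, against 50.4%). At AA 4wk 20 PTKO members fell (51.3%, against 17.3%) and 9 rose (23.1%, against 55%), and 18 fl/fl members fell (46.2%, against 14.3%) and 12 rose (30.8%, against 51.9%). Without the 3 members that passed through 1 side only, 16, 17, 19 and 17 of 36 fell and 7, 8, 7 and 10 rose, in the order PTKO AA 2wk, fl/fl AA 2wk, PTKO AA 4wk and fl/fl AA 4wk. Calls are from limma on log2(RPKM + 1) with Benjamini-Hochberg adjustment over all tested genes at 0.05. The median log2 fold change of the members was -0.45, -0.49, -0.54 and -0.22 for PTKO AA 2wk, fl/fl AA 2wk, PTKO AA 4wk and fl/fl AA 4wk, against 0.29, 0.33, 0.40 and 0.35 over all tested genes. The AA 2wk and AA 4wk effects of a genotype share their DMSO libraries.

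The gap between members and background depended on the scaling. The shift of the median gene went to 0.01, 0, 0.03 and 0 with median-of-ratios size factors. The share of all calls that were higher then went to 49.9%, 50.8%, 50.7% and 50.7%, against 76.3%, 80.5%, 76.1% and 78.4% as deposited. The members then gave 6 higher and 18 lower (PTKO AA 2wk), 8 and 21 (fl/fl AA 2wk), 6 and 21 (PTKO AA 4wk), and 6 and 20 (fl/fl AA 4wk). Of all tested genes, 27.1%, 27.5%, 33% and 29.9% were then lower, about as many as were higher (27%, 28.4%, 33.9% and 30.7%), so the share of members that fell stood less far above the background. Without both AA 2wk libraries numbered 3 the counts were 10 and 19, 10 and 21, 10 and 20, and 12 and 19 in the same order, with 16%, 14.6%, 18.4% and 15.9% of all tested genes lower.

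**Figure D2:**
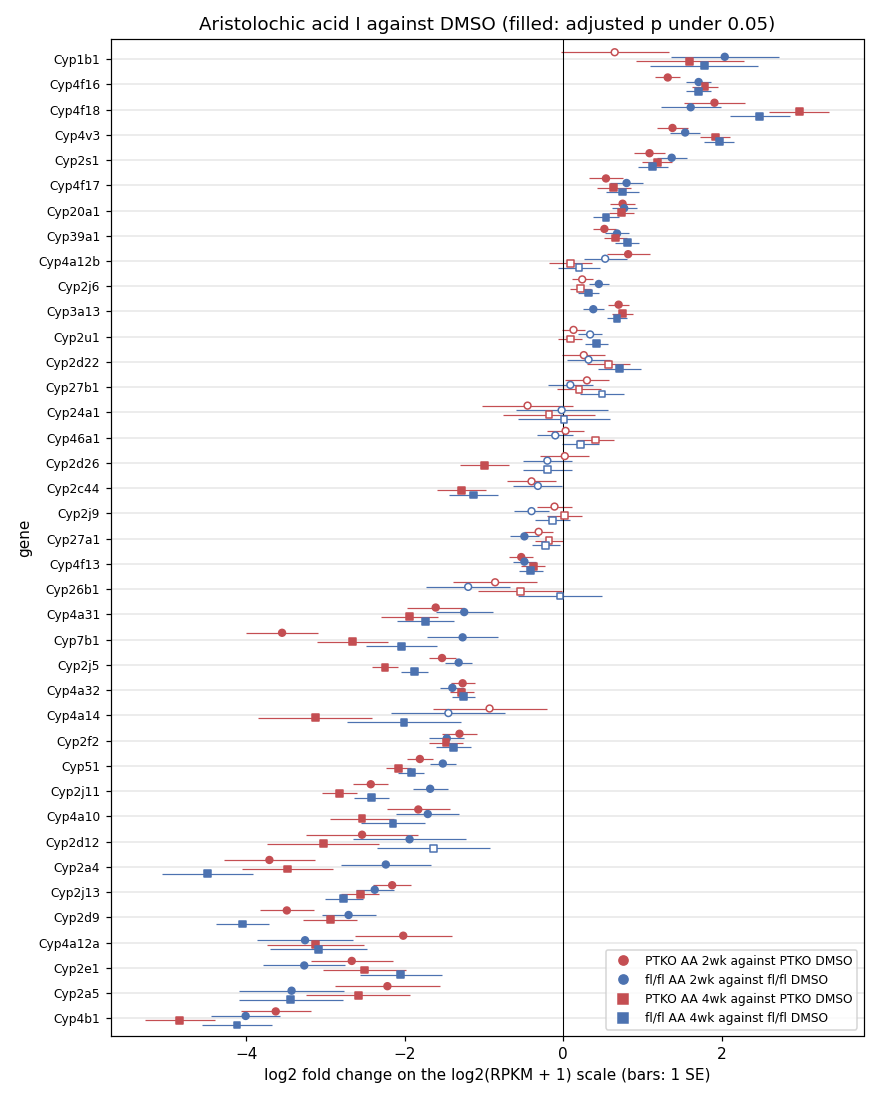
Log2 fold change of each member on the log2(RPKM + 1) scale (x axis, bars 1 SE) for PTKO (red) and fl/fl (blue) at AA 2wk (circles) and AA 4wk (squares), each against DMSO of its genotype; filled symbols passed the test. At AA 2wk in fl/fl, Cyp4b1, Cyp2a5 and Cyp2e1 lie at the low end, and Cyp1b1, Cyp4f16, Cyp4f18, Cyp4v3 and Cyp2s1 at the high end. The place of Cyp4f18, which passed through AA libraries only, describes the choice of members.

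Among the 18 fatty acid and eicosanoid P450s, 9 fell and 5 rose in PTKO AA 2wk and likewise in fl/fl AA 2wk, 10 fell and 4 rose in PTKO AA 4wk, and 10 fell and 6 rose in fl/fl AA 4wk. In each comparison these counts include Cyp4a32 among those that fell and Cyp4f18 among those that rose. Cyp4b1 read 2098, 2131 and 2075 RPKM in PTKO DMSO libraries, 96.5, 215 and 234 in PTKO AA 2wk, and 104, 41.5 and 88.3 in PTKO AA 4wk. In fl/fl libraries it read 2486, 1617 and 2943 with DMSO, 86.0, 107 and 305 at AA 2wk, and 140.3, 112 and 138 at AA 4wk. The AA libraries lay far below every DMSO library. The log2 fold changes were -3.63 ± 0.44 (PTKO AA 2wk, adjusted p = 1.58e-05), -4.01 ± 0.44 (fl/fl AA 2wk, 6.57e-06), -4.84 ± 0.44 (PTKO AA 4wk, 6.45e-07) and -4.12 ± 0.44 (fl/fl AA 4wk, 3.18e-06), with SE from the fit and 3 libraries a group.

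The Cyp4a subfamily, the fatty acid omega-hydroxylases that include the targets of the lipid receptor PPAR-alpha, mostly fell. Of its 6 members, 4 fell at AA 2wk and 5 at AA 4wk, in PTKO and in fl/fl cortex. Without Cyp4a32, whose fall the choice of members fixes, 3 of 5 fell at AA 2wk and 4 of 5 at AA 4wk. Cyp4a10, a PPAR-alpha target, read 124, 105 and 118 RPKM in PTKO DMSO, 19.8, 28.1 and 57.0 in PTKO AA 2wk, and 28.3, 12.9 and 18.9 in PTKO AA 4wk. The corresponding fl/fl libraries read 175, 194 and 129.9, then 52.5, 25.9 and 87.9, then 31.4, 41.6 and 35.7. Its log2 fold change ran from -1.71 ± 0.40 (fl/fl AA 2wk) to -2.54 ± 0.40 (PTKO AA 4wk). Cyp4a31 fell, with log2 changes from -1.25 (fl/fl AA 2wk) to -1.94 (PTKO AA 4wk). Cyp4a12a, which makes a vasoconstrictor hydroxy derivative of arachidonic acid and is higher in male mice, fell too, from -2.02 (PTKO AA 2wk) to -3.26 (fl/fl AA 2wk). Cyp4a32 changed by -1.26 to -1.40, a value its place in the set makes certain to be low.

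Cyp4a14, the other PPAR-alpha target, was more uneven. It read 3.84, 27 and 16.7 RPKM in PTKO AA 2wk and 6.63, 5.68 and 37.4 in fl/fl AA 2wk, against 17.2, 40.9 and 20.6 in PTKO DMSO and 40.7, 58.2 and 15.1 in fl/fl DMSO. The groups overlapped, and neither 2-week change passed the test (-0.93 ± 0.72, adjusted p = 0.275 in PTKO, and -1.45 ± 0.72, adjusted p = 0.0918 in fl/fl). At AA 4wk it fell to 3.83, 0.883 and 1.68 in PTKO (-3.13 ± 0.72, adjusted p = 0.00124) and to 9.14, 9.04 and 4.99 in fl/fl (-2.01 ± 0.72, adjusted p = 0.0231). The fl/fl call was lost without fl/fl DMSO library 1 (adjusted p = 0.067) or 2 (0.0891) or fl/fl AA 4wk library 3 (0.0753). Cyp4a12b, whose transcript is close to that of Cyp4a12a, went the other way in PTKO AA 2wk: it read 7.66, 16.8 and 9.86 RPKM there, against 5.39, 5.37 and 6.51 in PTKO DMSO (0.82 ± 0.27, adjusted p = 0.0162). That call was lost without PTKO AA 2wk library 2 (0.53, adjusted p = 0.0994) and with median-of-ratios scaling (0.52, adjusted p = 0.127). Similar transcripts limit this pair: 49.4% of the 50-base words of the Cyp4a12b transcript occur in other genes, and 48.9% of those of Cyp4a12a, so reads may have been split between them.

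The Cyp4f subfamily, which oxidises leukotrienes and other eicosanoids, was mixed. Cyp4f16 and Cyp4f17 rose and Cyp4f13 fell in each comparison, and the fourth member, Cyp4f18, had to be higher by the choice of members. Cyp4f16 read 7.11, 8 and 5.47 RPKM in PTKO AA 2wk and 9.54, 10.1 and 9.92 in PTKO AA 4wk, against 1.89, 1.95 and 2.58 in PTKO DMSO. In fl/fl it read 9.30, 9.57 and 6.60 at AA 2wk and 8.69, 8.45 and 8.14 at AA 4wk, against 1.56, 2.52 and 1.63 with DMSO. All AA libraries lay above all DMSO libraries, and the change was 1.32 ± 0.16, 1.71 ± 0.16, 1.79 ± 0.16 and 1.71 ± 0.16 (PTKO AA 2wk, fl/fl AA 2wk, PTKO AA 4wk, fl/fl AA 4wk). Cyp4f18, known in mice from neutrophils and other myeloid cells, where it inactivates leukotriene B4, read 5.85, 5.93 and 2.75 RPKM in PTKO AA 2wk and 10, 12.5 and 10.2 in PTKO AA 4wk, against 0.804, 0.191 and 0.575 in PTKO DMSO. In fl/fl it read 3.66, 7.27 and 0.991 at AA 2wk and 8.56, 7.08 and 4.97 at AA 4wk, against 0.261, 0.472 and 0.445 with DMSO. It is one of the rows that passed through AA libraries only.

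Markers of macrophages and neutrophils were higher beside it. The summed RPKM of 8 macrophage genes was 2483, 2568 and 914 in PTKO AA 2wk libraries and 1238, 2891 and 446 in fl/fl AA 2wk libraries, against at most 128 in PTKO DMSO and 110.4 in fl/fl DMSO. All 8 rose in each comparison, and none was at 0. The AA 2wk library numbered 3 was lowest for both Cyp4f18 and these markers in each genotype. At AA 4wk the marker sums were 3454 to 4815 in PTKO and 2133 to 3230.3 in fl/fl. The summed RPKM of 6 neutrophil genes was 22.9, 53.5 and 12.2 in PTKO AA 2wk and 133, 25.7 and 6.87 in fl/fl AA 2wk, against at most 4.38 in PTKO DMSO and 2.79 in fl/fl DMSO, and 14 to 26.9 in PTKO AA 4wk and 12 to 17.9 in fl/fl AA 4wk. None was at 0, and of the 4 tested, 4 rose in PTKO AA 2wk and 2 in each other group. Over all tested genes, 45.9% to 55% rose in these comparisons. In fl/fl AA 2wk the library highest in the neutrophil genes was not the one highest in Cyp4f18. The part of either cell type in the Cyp4f18 values was not tested.

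Cyp4f17 read 6.4, 6.54 and 3.28 RPKM in PTKO AA 2wk, against 3.75, 2.93 and 3.14 in PTKO DMSO (0.54 ± 0.21, adjusted p = 0.0375). This call was lost without PTKO DMSO library 2 (adjusted p = 0.105) or 3 (0.0854) or PTKO AA 2wk library 1 (0.149) or 2 (0.158). It rose by 0.64 ± 0.21 in PTKO AA 4wk, lost without PTKO AA 4wk library 3 (adjusted p = 0.0556), and by 0.80 ± 0.21 and 0.75 ± 0.21 in fl/fl AA 2wk and AA 4wk. Median-of-ratios scaling left only the fl/fl AA 2wk call of these 4 (adjusted p = 0.214 in PTKO AA 2wk, 0.175 in PTKO AA 4wk and 0.0529 in fl/fl AA 4wk). Quantile normalization ended the fl/fl AA 2wk call too (adjusted p = 0.207). Cyp4f13 fell modestly, with changes of -0.53 ± 0.15 and -0.49 ± 0.15 at AA 2wk and of -0.38 ± 0.15 and -0.41 ± 0.15 at AA 4wk in PTKO and fl/fl. The fl/fl AA 2wk call was lost without fl/fl AA 2wk library 2 (adjusted p = 0.0671). The PTKO AA 4wk call was lost without PTKO DMSO library 2 (0.108) or 3 (0.0711) or PTKO AA 4wk library 1 (0.101) or 2 (0.076), and the fl/fl AA 4wk call without fl/fl DMSO library 1 (0.0938) or 2 (0.104) or fl/fl AA 4wk library 1 (0.053) or 2 (0.0857). Cyp4v3, the mouse counterpart of the human fatty acid hydroxylase CYP4V2, read 11.3, 8.79 and 7.29 RPKM in PTKO AA 2wk and 11.8, 16.2 and 13 in PTKO AA 4wk, against 2.60, 2.61 and 3.36 in PTKO DMSO. Its rise of 1.38 ± 0.19 to 1.97 ± 0.19 kept its call in every setting run.

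The 5 Cyp2j members lie in one stretch of chromosome 4 in GENCODE vM21 (GRCm38), with Cyp2j genes that are not members among them, from Cyp2j13 (starting at 96027534) to Cyp2j5 (ending at 96664154), and they did not move as a block. Cyp2j5, Cyp2j11 and Cyp2j13 fell, while Cyp2j6 and Cyp2j9, which lie between Cyp2j11 and Cyp2j5, did not. Cyp2j5 read 236, 210.5 and 305 RPKM in PTKO AA 2wk and 272, 241 and 371 in fl/fl AA 2wk, against 703, 730.5 and 711 in PTKO DMSO and 700, 702 and 777 in fl/fl DMSO. Its change was -1.53 ± 0.17 (adjusted p = 6.57e-06) in PTKO and -1.32 ± 0.17 (2.1e-05) in fl/fl. At AA 2wk Cyp2j13 changed by -2.16 ± 0.24 in PTKO and -2.38 ± 0.24 in fl/fl, and Cyp2j11 by -2.43 ± 0.22 in PTKO and -1.68 ± 0.22 in fl/fl. Cyp2j6 read 20.3, 21.8 and 20.9 RPKM in PTKO AA 2wk, against 16.2, 19.2 and 17.7 in PTKO DMSO, which did not pass the test (0.24 ± 0.13, adjusted p = 0.113). In fl/fl both changes were called, with 0.45 ± 0.13 for AA 2wk (adjusted p = 0.00571) and 0.32 ± 0.13 for AA 4wk (0.0352). With median-of-ratios scaling these became 0.08 (adjusted p = 0.623) and -0.07 (0.632), so its rise rests on the deposited scaling. The AA 4wk call was also lost without fl/fl DMSO library 1 (0.0716) or 3 (0.158) or fl/fl AA 4wk library 1 (0.0551), 2 (0.0765) or 3 (0.0837). Cyp2j9 ran from 4.01 to 11 RPKM with no call. Cyp2u1, another fatty acid hydroxylase, lay between 0.867 and 2.14 RPKM and was called only in fl/fl AA 4wk (0.42 ± 0.15, adjusted p = 0.0187). That call was lost with median-of-ratios scaling (0.307) and without fl/fl DMSO library 3 (0.0749) or fl/fl AA 4wk library 2 (0.0652) or 3 (0.0603).

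**Figure D3:**
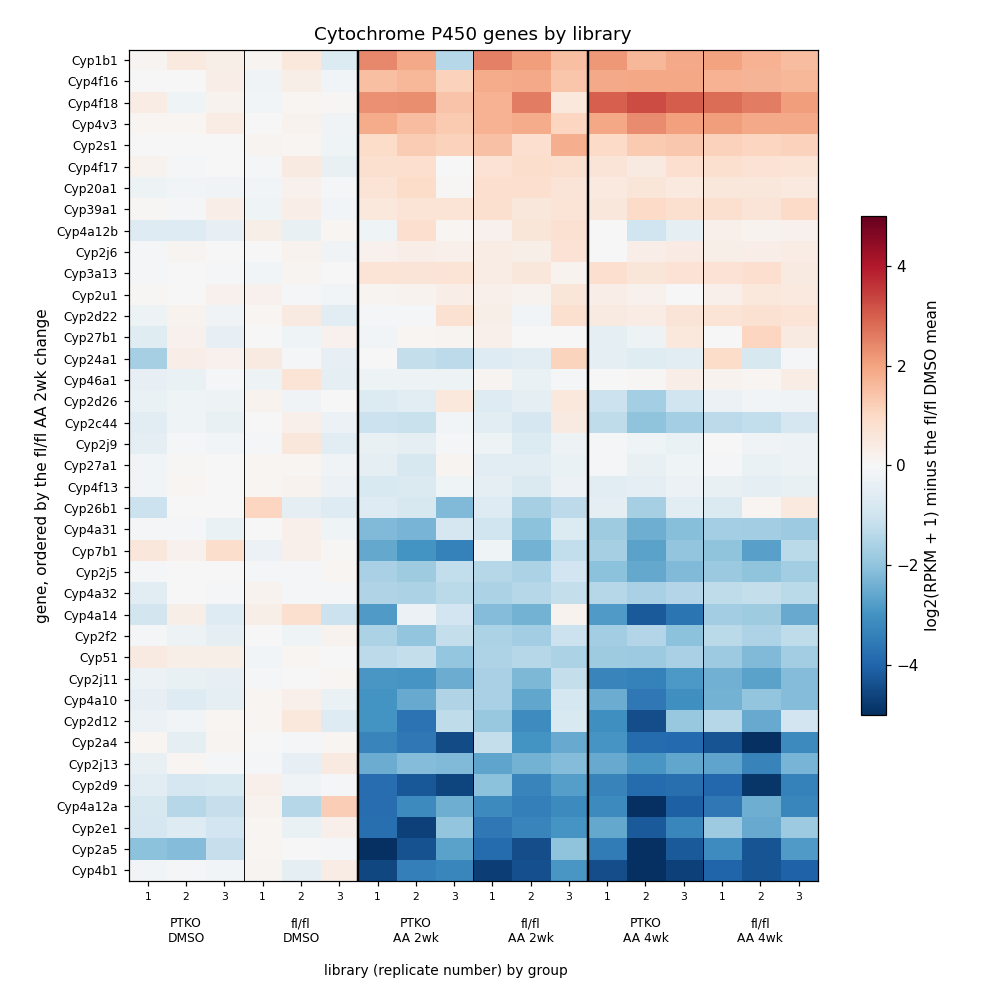
Each member (rows, ordered by the fl/fl AA 2wk change) in each of the 18 libraries (columns, by group), as log2(RPKM + 1) minus the mean of the fl/fl DMSO libraries. Cyp2j5 and Cyp2j6, from the same stretch of chromosome 4, take opposite colours in the fl/fl AA libraries, and the PTKO AA 2wk library numbered 3 stands out at Cyp1b1.

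Under foreign compounds 12 members were grouped, among them Cyp2a4, Cyp2c44 and Cyp2d9, which also act on steroids or arachidonic acid. Of the 12, 6 fell and 2 rose in PTKO AA 2wk, and 6 fell and 3 rose in fl/fl AA 2wk. At AA 4wk 8 fell and 3 rose in PTKO, and 6 fell and 4 rose in fl/fl. One of the genes that rose each time is Cyp3a13, which passed through AA libraries only. The choice of members fixes the direction of its rise, except in fl/fl AA 2wk. There its libraries (0.651, 0.905 and 0.462 RPKM) were all under 1 RPKM. Cyp2e1 read 703, 791 and 643 RPKM in PTKO DMSO, 90.3, 47.9 and 314 in PTKO AA 2wk, and 214, 67.3 and 131 in PTKO AA 4wk. In fl/fl it read 1331, 982 and 1495 with DMSO, 105, 127 and 161 at AA 2wk, and 356, 218 and 355 at AA 4wk. DMSO and AA libraries did not overlap, and the change was -2.67 ± 0.52 (adjusted p = 0.000584) and -3.27 ± 0.52 (0.000115) at AA 2wk and -2.51 ± 0.52 (0.000543) and -2.05 ± 0.52 (0.00299) after remodeling in PTKO and fl/fl. Cyp2f2, known from mouse lung for activating naphthalene, fell from a low level, with changes from -1.31 to -1.48. Cyp2c44, an arachidonic acid epoxygenase, was not called at AA 2wk (-0.40 ± 0.31 in PTKO and -0.32 ± 0.31 in fl/fl) and fell at AA 4wk (-1.28 ± 0.31 in PTKO and -1.13 ± 0.31 in fl/fl).

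Cyp2a4, a steroid hydroxylase, and Cyp2a5, the coumarin and nicotine hydroxylase, both lie on chromosome 7. Their start regions are nearly identical and are shown here because of that likeness. Over 249 aligned bases up to the RefSeq gene start, 4 differ (98.4% identical). The sequences are from RefSeq on GRCm38, plus strand, at chr7:26306943-26307191 and chr7:26835089-26835337, and capitals mark the bases that differ.
Cyp2a4: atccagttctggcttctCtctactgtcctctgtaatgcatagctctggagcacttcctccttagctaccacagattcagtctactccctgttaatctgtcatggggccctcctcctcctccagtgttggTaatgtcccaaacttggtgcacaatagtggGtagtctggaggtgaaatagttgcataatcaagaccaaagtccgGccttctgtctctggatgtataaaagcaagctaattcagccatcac
Cyp2a5: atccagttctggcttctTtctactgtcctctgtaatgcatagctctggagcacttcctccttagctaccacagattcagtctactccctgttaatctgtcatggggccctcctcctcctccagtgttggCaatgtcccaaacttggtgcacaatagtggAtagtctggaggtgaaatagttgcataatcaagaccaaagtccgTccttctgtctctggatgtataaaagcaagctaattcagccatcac

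Cyp2a4 read 226, 152 and 229 RPKM in PTKO DMSO and 208, 198 and 226 in fl/fl DMSO, and the groups overlapped. Cyp2a5 read 19.9, 18.1 and 38.2 in PTKO DMSO, against 92.4, 84.0 and 80.5 in fl/fl DMSO, with no overlap. Within a library, the ratio of Cyp2a5 to Cyp2a4 was 0.0883, 0.119 and 0.167 in PTKO DMSO, against 0.445, 0.425 and 0.357 in fl/fl DMSO. The genotype change of Cyp2a5 in DMSO was -1.79 ± 0.66 on the log2 scale (95% interval -3.21 to -0.37, limma adjusted p = 0.861), so it did not pass the test. Of the 50-base words of each transcript, 38.0% (Cyp2a4) and 40.8% (Cyp2a5) occur in other genes, so the split of reads between the pair is uncertain.

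Both genes fell with the toxin. Cyp2a4 went to 20.2, 16.6 and 8.50 RPKM in PTKO AA 2wk and to 90.6, 25.7 and 35.6 in fl/fl AA 2wk, a change of -3.71 ± 0.57 (adjusted p = 9.97e-05) in PTKO and -2.24 ± 0.57 (0.00359) in fl/fl. At AA 4wk it was 26.5, 13.6 and 13.3 in PTKO and 9.50, 2.37 and 22.4 in fl/fl, a change of -3.48 ± 0.57 and -4.49 ± 0.57. Cyp2a5 changed by -2.22 ± 0.66 in PTKO AA 2wk (adjusted p = 0.0101, and 0.0559 without PTKO AA 2wk library 1), by -3.43 ± 0.66 in fl/fl AA 2wk, by -2.59 ± 0.66 in PTKO AA 4wk and by -3.44 ± 0.66 in fl/fl AA 4wk. Its ratio to Cyp2a4 in AA libraries ran from 0.0559 to 1.46. Weighting libraries by quality ended the fl/fl AA 2wk call of Cyp2a4 (-1.32, adjusted p = 0.119).

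The Cyp2d genes, relatives of the human drug enzyme CYP2D6, differed among themselves. Cyp2d9, a testosterone hydroxylase higher in male mice, read 62.0, 49.2 and 51.5 RPKM in PTKO DMSO, 5.47, 3.79 and 2.78 in PTKO AA 2wk, and 7.80, 5.29 and 5.68 in PTKO AA 4wk. The fl/fl libraries read 106, 77.7 and 85.8 with DMSO, 20.8, 8.06 and 12.4 at AA 2wk, and 4.95, 2.12 and 7.61 at AA 4wk. It fell in each comparison, with changes of -3.49 ± 0.34 in PTKO AA 2wk, -2.71 ± 0.34 in fl/fl AA 2wk, -2.94 ± 0.34 in PTKO AA 4wk and -4.05 ± 0.34 in fl/fl AA 4wk on the log2 scale. Cyp2d12 changed by -2.54 ± 0.71 in PTKO AA 2wk, by -3.03 ± 0.71 in PTKO AA 4wk and by -1.94 ± 0.71 in fl/fl AA 2wk (adjusted p = 0.0282). The fl/fl AA 2wk call was lost without fl/fl DMSO library 1 (0.0675) or 2 (0.0862) or fl/fl AA 2wk library 1 (0.058) or 2 (0.139), and the fl/fl AA 4wk change of -1.64 ± 0.71 was not called (0.0543).

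Cyp2d26, the most abundant of the subfamily, was not called at AA 2wk (0.02 ± 0.31 in PTKO, adjusted p = 0.951, and -0.20 ± 0.31 in fl/fl, 0.588). It read 86.7, 95.3 and 201 RPKM in PTKO AA 2wk and 88.8, 98.7 and 203 in fl/fl AA 2wk, against 112, 119.8 and 118 in PTKO DMSO and 159, 122 and 139.9 in fl/fl DMSO. The AA 2wk library numbered 3 was the highest in each genotype, and the other AA 2wk libraries lay below every DMSO library of their genotype. Without both libraries numbered 3 the change was -0.35 ± 0.17 in PTKO (adjusted p = 0.0711) and -0.57 ± 0.17 in fl/fl (0.00753), which passed. At AA 4wk it fell in PTKO, to 66.4, 42.8 and 69.8 (-0.99 ± 0.31, adjusted p = 0.0103, and 0.0567 without PTKO AA 4wk library 2), and read 113, 127 and 124 in fl/fl (-0.20 ± 0.31, adjusted p = 0.578). Cyp2d22 was called higher in fl/fl AA 4wk alone (15.4, 16.2 and 15.2 RPKM, against 9.84, 12.9 and 5.90 in fl/fl DMSO; 0.71 ± 0.27, adjusted p = 0.0325). It lost that call with median-of-ratios scaling (0.337) and without any 1 of fl/fl DMSO libraries 1 (0.0519) and 3 (0.18) and fl/fl AA 4wk libraries 1 (0.0644), 2 (0.0761) and 3 (0.0585).

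Cyp1b1 activates carcinogens and oxidises oestradiol, and is a target of the aryl hydrocarbon receptor. Among the members it had the largest rise in fl/fl AA 2wk, but not in the other comparisons against DMSO. It read 41.7, 29.3 and 2.07 RPKM in PTKO AA 2wk and 35.3, 24.7 and 29.7 in PTKO AA 4wk, against 8, 10.5 and 8.95 in PTKO DMSO. In fl/fl it read 45.7, 34.2 and 22.1 at AA 2wk and 32.3, 26.2 and 23.1 at AA 4wk, against 8.02, 10.8 and 4.11 with DMSO. PTKO AA 2wk library 3 lay below every other library. Its summed level of 6 fibroblast markers was 27.2 RPKM, against 400.1 and 199.9 in the other PTKO AA 2wk libraries, 115 to 449.9 in fl/fl AA 2wk, 474 to 502 in PTKO AA 4wk, 261 to 372 in fl/fl AA 4wk, 64.0 to 79.0 in PTKO DMSO and 21.6 to 90.7 in fl/fl DMSO. Of the 6 markers, 0 were called in PTKO AA 2wk, 5 rose in fl/fl AA 2wk and 6 in each AA 4wk group, and none was at 0. Over all tested genes, 45.9% to 55% rose in these comparisons. The part of the fibroblast markers in the Cyp1b1 values was not tested. The change of Cyp1b1 was 0.65 ± 0.68 in PTKO AA 2wk (adjusted p = 0.417), 2.04 ± 0.68 in fl/fl AA 2wk (0.0165), 1.6 ± 0.68 in PTKO AA 4wk (0.0449) and 1.78 ± 0.68 in fl/fl AA 4wk (0.0307). The fl/fl AA 2wk call was lost without fl/fl DMSO library 3 (0.0703) or fl/fl AA 2wk library 1 (0.0609). The PTKO AA 4wk call was lost in 18 of 31 other settings, among them median-of-ratios scaling (0.114) and leaving out any 1 PTKO DMSO library (0.101, 0.0685 and 0.0867) or PTKO AA 4wk library (0.106, 0.0642 and 0.0853), or without fl/fl DMSO library 1 (0.0541), fl/fl AA 2wk library 1 (0.05), fl/fl AA 2wk library 2 (0.0515), fl/fl AA 4wk library 1 (0.0529), fl/fl AA 4wk library 2 (0.0539) or fl/fl AA 4wk library 3 (0.0533). The fl/fl AA 4wk call was lost without fl/fl DMSO library 1 (0.0552) or 3 (0.117) or fl/fl AA 4wk library 1 (0.0809) or 2 (0.0617), with median-of-ratios scaling (0.0685) and with quantile normalization (0.0703).

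The 250 bases before the annotated Cyp1b1 start are shown because this gene is a known target of the aryl hydrocarbon receptor, and capitals mark the core that the receptor binds (GCGTG, searched on both strands). They are from RefSeq on GRCm38, chr17:79715062-79715311, given on the gene's minus strand. The core occurs in 8 of 26 member promoters with a sequence and in 32.4% of all 32851 promoters, a common match.
Cyp1b1: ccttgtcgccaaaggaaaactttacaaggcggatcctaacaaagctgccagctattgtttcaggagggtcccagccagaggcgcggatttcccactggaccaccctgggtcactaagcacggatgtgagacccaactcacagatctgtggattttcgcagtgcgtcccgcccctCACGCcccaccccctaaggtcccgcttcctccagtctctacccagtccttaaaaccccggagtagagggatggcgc

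Cyp2s1, a P450 found mainly outside the liver, rose in all 4 comparisons, to 17.6, 22.6 and 21.3 RPKM in PTKO AA 2wk and 26.3, 16.7 and 34.2 in fl/fl AA 2wk, against 8.98, 9.19 and 8.93 in PTKO DMSO and 9.79, 9.66 and 7.49 in fl/fl DMSO. The changes were 1.09 ± 0.19 (adjusted p = 0.000232) and 1.37 ± 0.19 (3.57e-05), and 1.19 ± 0.19 and 1.13 ± 0.19 at AA 4wk, with no setting that ended a call. Cyp3a13, the one Cyp3a member, reached 1.07, 1.01 and 1.06 RPKM in PTKO AA 2wk and 0.651, 0.905 and 0.462 in fl/fl AA 2wk, against 0.232, 0.303 and 0.237 in PTKO DMSO and 0.169, 0.408 and 0.278 in fl/fl DMSO. It passed through AA libraries only, and its fl/fl AA 2wk change (0.38 ± 0.13, adjusted p = 0.0209) was lost without fl/fl DMSO library 1 (0.0874) or fl/fl AA 2wk library 2 (0.105), and with median-of-ratios scaling (0.083).

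**Figure D4:**
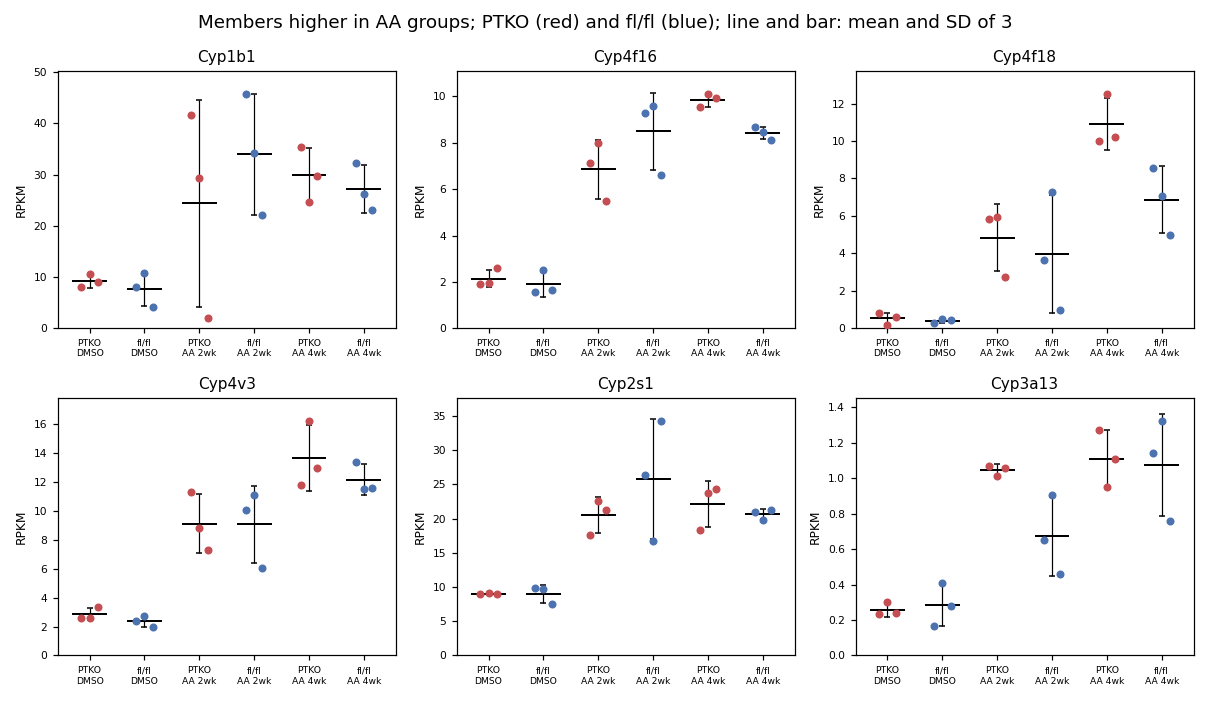
RPKM (y axis) of 6 members that were higher in AA groups, by group, with a point for each library and the mean and SD of 3 libraries. PTKO AA 2wk library 3 is at 2.07 for Cyp1b1, below the other 2 of its group, and Cyp4f18 is highest in PTKO AA 4wk, at 10 to 12.5. Cyp4f18 and Cyp3a13 passed through AA libraries only, so their rise over DMSO is not separate from the choice of members.

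The sterol and bile acid group split. Cyp51, the lanosterol demethylase of cholesterol synthesis, read 22.5, 24.1 and 14.3 RPKM in PTKO AA 2wk and 16.1, 15.4 and 17.6 in PTKO AA 4wk, against 77.5, 69.9 and 69.3 in PTKO DMSO. In fl/fl it read 18.9, 20.6 and 18.2 at AA 2wk and 15.5, 11.6 and 16.4 at AA 4wk, against 51.6, 61.7 and 58.1 with DMSO. The change was -1.81 ± 0.16 in PTKO and -1.52 ± 0.16 in fl/fl at AA 2wk, and -2.08 ± 0.16 in PTKO and -1.92 ± 0.16 in fl/fl at AA 4wk, each called. In PTKO DMSO every library was above every fl/fl DMSO library (0.33 ± 0.16, adjusted p = 1). Its start region is shown because it holds a sterol regulatory element core (TCACCTC, both strands, in capitals), which occurs in 4 of 26 member promoters and 5.15% of all. It is from RefSeq on GRCm38, chr5:4104698-4104947, on the gene's minus strand.
Cyp51: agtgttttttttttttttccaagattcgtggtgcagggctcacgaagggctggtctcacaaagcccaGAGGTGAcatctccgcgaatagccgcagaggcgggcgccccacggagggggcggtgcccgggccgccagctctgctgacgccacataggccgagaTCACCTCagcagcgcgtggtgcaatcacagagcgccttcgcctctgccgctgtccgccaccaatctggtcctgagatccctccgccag

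Cyp7b1, the oxysterol hydroxylase, read 12.6, 9.13 and 6.70 RPKM in PTKO AA 2wk and 69.1, 14.7 and 33.1 in fl/fl AA 2wk, against 119.6, 93.7 and 147 in PTKO DMSO and 64.6, 94.1 and 83.4 in fl/fl DMSO. The PTKO change was -3.55 ± 0.45 (adjusted p = 2.18e-05) and the fl/fl change -1.27 ± 0.45 (0.0239). The fl/fl call was lost without fl/fl DMSO library 2 (0.0669) or 3 (0.0593) or fl/fl AA 2wk library 2 (-0.72, 0.143). Weighting libraries by quality also ended it (-0.43, 0.508). At AA 4wk both genotypes fell (-2.66 ± 0.45 in PTKO and -2.04 ± 0.45 in fl/fl). Cyp39a1, another oxysterol hydroxylase, rose by 0.52 ± 0.15 and 0.68 ± 0.15 at AA 2wk and by 0.66 ± 0.15 and 0.81 ± 0.15 at AA 4wk in PTKO and fl/fl. Its PTKO AA 2wk call was lost without PTKO DMSO library 2 (0.0516), and both PTKO calls with median-of-ratios scaling (0.25, adjusted p = 0.17, and 0.30, 0.0874). Quantile normalization ended its call in each comparison (adjusted p = 0.304 to 0.942). Cyp46a1, the brain cholesterol hydroxylase, stayed between 0.209 and 1.63 RPKM with no call.

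The 3 vitamin D enzymes gave 1 call over the 4 comparisons, while the gene of the receptor fell in each. Cyp24a1, which breaks down the hormone, read 45.1, 18.8 and 17.4 RPKM in PTKO AA 2wk and 28.0, 30.7 and 96.0 in fl/fl AA 2wk, against 13.3, 55.8 and 51.9 in PTKO DMSO and 61.2, 42.4 and 33.5 in fl/fl DMSO. Libraries of 1 group differed by up to several fold, and no change was called (-0.45 ± 0.58 in PTKO and -0.02 ± 0.58 in fl/fl). Cyp27b1, which activates the hormone, lay between 5.20 and 18.8 RPKM, with changes from 0.09 ± 0.28 to 0.49 ± 0.28 and no call. Cyp27a1, the mitochondrial sterol hydroxylase that also acts on vitamin D, lay between 16.6 and 32.7 RPKM and was called in fl/fl AA 2wk only (-0.49 ± 0.18, adjusted p = 0.0245). That call was lost without fl/fl DMSO library 1 (0.0764) or 2 (0.0681) or fl/fl AA 2wk library 1 (0.0747) or 2 (0.0693). Vdr, the vitamin D receptor gene, averaged 49.1 RPKM in PTKO AA 2wk and 102 in PTKO DMSO, and 59.1 in fl/fl AA 2wk and 113 in fl/fl DMSO (-1.04 ± 0.16 and -0.98 ± 0.16).

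Cyp26b1, which clears retinoic acid, ran from 0.183 RPKM in PTKO AA 2wk library 3 to 10.5 in fl/fl DMSO library 1, and no change passed the test. Cyp20a1, an enzyme with no assigned substrate, read 15.1, 17.5 and 9.23 RPKM in PTKO AA 2wk and 16.7, 16.8 and 14.4 in fl/fl AA 2wk, against 7.23, 7.97 and 7.68 in PTKO DMSO and 8.09, 10.5 and 8.33 in fl/fl DMSO. It rose by 0.75 ± 0.16 and 0.77 ± 0.16, and by 0.74 ± 0.16 and 0.54 ± 0.16 at AA 4wk. With median-of-ratios scaling the fl/fl AA 4wk call ended (0.16, adjusted p = 0.246). Quantile normalization ended both AA 4wk calls (adjusted p = 0.0574 in PTKO and 0.433 in fl/fl).

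Between AA 4wk and AA 2wk few members moved. In PTKO mice 1 member changed, Cyp2j5, of 39 (2.56%, against 4.16% of all tested genes in either direction). It read 175, 121 and 158 RPKM at AA 4wk, against 236, 210.5 and 305 at AA 2wk (-0.72 ± 0.17, adjusted p = 0.0323). That call was lost without PTKO AA 2wk library 3 (0.102) or PTKO AA 4wk library 2 (0.176) or 3 (0.0815), and in a fit of only these groups (0.185). The count went to 3 higher and 5 lower without fl/fl AA 2wk library 3, where 11.7% of all tested genes were called, and to 1 higher and 5 lower without PTKO AA 2wk library 1, where 9.61% were. In fl/fl mice no member was called by limma, against 0.125% of all genes. An unadjusted limma p under 0.05 was found in PTKO for 9 of 39 members and for 3670 of 13624 tested genes. In fl/fl it was found for 11 of 39 members and for 1672 of 13624 tested genes. The smallest p-values in fl/fl were those of Cyp2d9 (4.95, 2.12 and 7.61 RPKM at AA 4wk, against 20.8, 8.06 and 12.4 at AA 2wk; -1.35 ± 0.34, adjusted p = 0.137), Cyp2a4 (-2.25 ± 0.57, 0.141) and Cyp2j11 (-0.74 ± 0.22, 0.196). With the replicate number as a block within the AA 2wk groups, where same-numbered libraries deviate together, these became 0.033, 0.0414 and 0.0208, and the counts were 3 higher and 6 lower in PTKO and 1 higher and 5 lower in fl/fl. Under that block 16.5% of all tested genes were higher and 7.21% lower in PTKO, and 2% higher and 1.23% lower in fl/fl. Without fl/fl AA 2wk library 2, 2 members were called lower, Cyp2d9 (adjusted p = 0.0343) and Cyp2j11 (0.0166), and 0.609% of all tested genes. Voom on the recovered reads called 1 member lower in PTKO and 0 in fl/fl.

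In the main fit, which used no block, no member passed the test between the genotypes at any treatment. Few genes of the whole table did. The share called in either direction was 0.0367% of tested genes with DMSO, 0.00734% in AA 2wk cortex, 0.00734% in AA 4wk cortex and 0.0514% for the average over the 3 treatments. For the interactions of genotype with AA 2wk and with AA 4wk it was 0.0147% and 0.00734%, again with no member. Members of the 39 with an unadjusted limma p under 0.05 numbered 2 with DMSO, 5 in AA 2wk, 7 in AA 4wk and 9 for the average. For the interactions they numbered 2 and 1. Over all 13624 tested genes the numbers were 673, 913, 823 and 1052, and 730 and 635 for the interactions. Voom on the recovered reads called 0 members in each. Other settings without a block, among them quality weights and plain moderation, did call members, as listed in the section on processing. The estimates leaned to lower values in PTKO: 28, 29, 29 and 31 of 39 were negative, with medians of -0.12, -0.15, -0.22 and -0.21, against 0.01, -0.06, 0.03 and -0.01 over all tested genes. All members come from the same libraries, and the average is built from the 3 treatments, so these counts are not independent observations.

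The same values were also counted by complete separation of the libraries, which is not separate evidence. In DMSO 8 members were lower in every PTKO library than in every fl/fl library (20.5%, against 5.77% of tested genes), namely Cyp20a1, Cyp2d9, Cyp2d26, Cyp2j11, Cyp4a12b, Cyp4a10, Cyp2a5 and Cyp2e1, and 1 was higher, Cyp51 (2.56%, against 7.88%). At AA 2wk 4 were lower (10.3%, against 4.74%), namely Cyp2d9, Cyp7b1, Cyp2j11 and Cyp2a4, and 1 was higher, Cyp3a13 (against 1.95%). At AA 4wk 10 were lower (25.6%, against 9.73%) and 2 higher, Cyp4f16 and Cyp4f18 (5.13%, against 14.1%). The PTKO mean was the lower one in all 3 treatments for 19 members (48.7%), against 2010 tested genes (14.8%).

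The median genotype change of the 18 markers was 0.02 with DMSO, -0.31 in AA 2wk cortex and -0.60 in AA 4wk cortex, with no marker called. Their part in the genotype values of the P450 genes was not tested. In DMSO their summed level in PTKO lay within the fl/fl range.

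Cyp2j11 was the only member lower in every PTKO library at all 3 treatments, as were 15 tested genes (0.11%). It read 124, 118 and 116 RPKM in PTKO DMSO, against 143, 151 and 166 in fl/fl DMSO. At AA 2wk it read 19.3, 18.8 and 26.4 in PTKO, against 49.3, 31.3 and 66.8 in fl/fl, and at AA 4wk 14.7, 13.9 and 19.8 in PTKO, against 28.1, 22.8 and 33.2 in fl/fl. The genotype change was -0.36 ± 0.22 with DMSO (adjusted p = 1). The estimate was -1.11 ± 0.22 in AA 2wk libraries (0.217), -0.76 ± 0.22 in AA 4wk libraries (0.812) and -0.74 ± 0.13 on average (95% interval -1.01 to -0.47, 0.0535). With the replicate block within the AA 2wk groups it passed at AA 2wk (adjusted p = 0.00687), at AA 4wk (0.032) and on average (0.00144), and with the block over all libraries at AA 2wk (0.0306) and on average (0.00497). It also passed at AA 2wk without fl/fl AA 2wk library 2 (-1.39, 0.00294). At AA 4wk it passed without both AA 2wk libraries numbered 3 (0.043). On average it passed without fl/fl AA 2wk library 2 (0.00123) or 3 (0.0308), PTKO AA 2wk library 3 (0.0366) or both AA 2wk libraries numbered 3 (0.0077). With all libraries kept it also passed on average with plain moderation (0.0454) and with quality weights (0.000522), so its side of the threshold depends on the model and on single libraries.

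Other genotype estimates were larger but less even. At AA 2wk Cyp2d9 averaged 4.02 ± 1.36 RPKM in PTKO and 13.7 ± 6.46 in fl/fl (SD, n = 3 each; log2 change -1.50 ± 0.34, adjusted p = 0.295 by limma) and Cyp7b1 averaged 9.46 ± 2.95 in PTKO and 39.0 ± 27.7 in fl/fl (-1.72 ± 0.45, adjusted p = 0.356 by limma). Both passed without fl/fl AA 2wk library 2 (-1.80, adjusted p = 0.0314, and -2.26, 0.022). With all libraries kept, both also passed with quality weights (-1.83, adjusted p = 0.0016, and -2.41, 0.00163). The interaction of genotype with AA 2wk for Cyp7b1 was -2.28 ± 0.64 (95% interval -3.64 to -0.92, adjusted p = 0.698), for Cyp2j11 -0.75 ± 0.31 (0.883) and for Cyp2a4 -1.47 ± 0.81 (0.938). At AA 4wk Cyp2d26 averaged 59.7 ± 14.7 in PTKO and 121 ± 7.45 in fl/fl (-1.04 ± 0.31, adjusted p = 0.812 by limma, and 0.0132 with the block within AA 2wk), and passed without both AA 2wk libraries numbered 3 (0.0199). Cyp4a12b averaged 6.49 ± 2.60 in PTKO AA 4wk and 10.6 ± 0.309 in fl/fl AA 4wk (-0.68 ± 0.27, limma adjusted p = 0.812), 5.75 ± 0.652 in PTKO DMSO and 9.24 ± 2.33 in fl/fl DMSO (-0.58 ± 0.27, adjusted p = 1), and -0.52 ± 0.15 on average (0.408). The interactions with AA 4wk of smallest p were 1.12 ± 0.48 for Cyp2d9, -0.78 ± 0.44 for Cyp2d26 and -0.34 ± 0.21 for Cyp2u1 (adjusted p = 0.934 each).

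**Figure D5:**
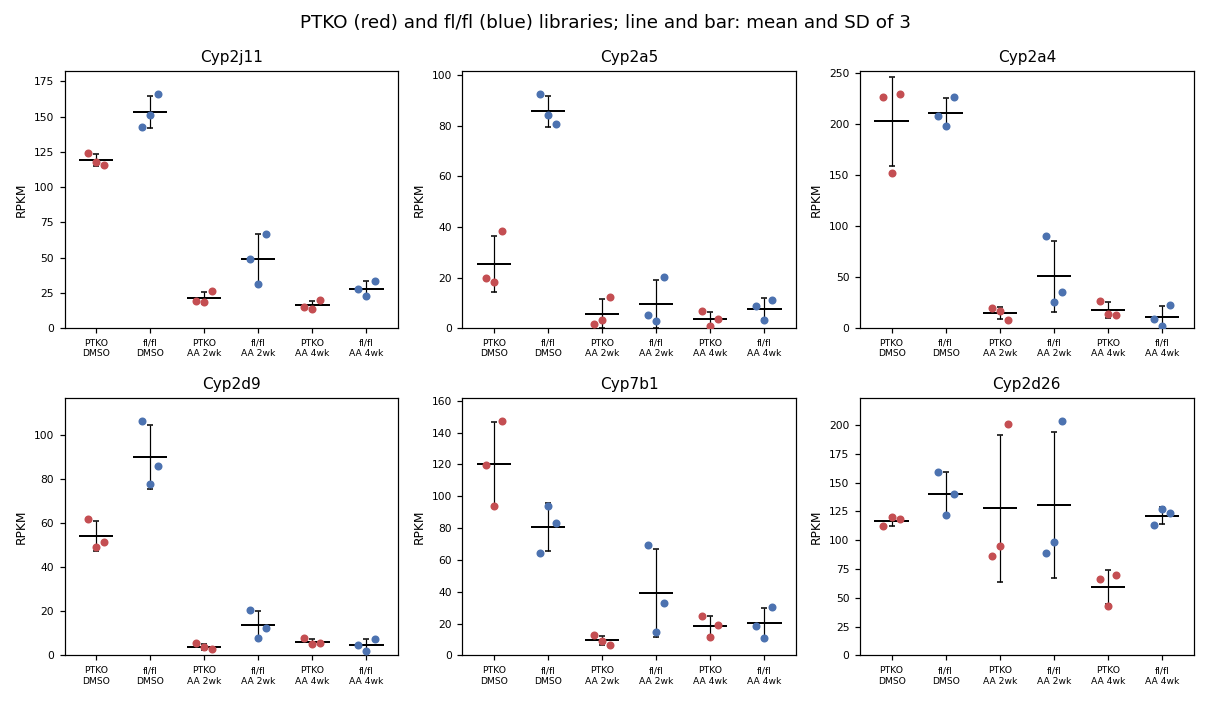
RPKM (y axis) by group for 6 members with large genotype estimates, with a point for each library and the mean and SD of 3 libraries. Cyp2j11 is lower in all PTKO libraries at each treatment (124 or less, against 143 or more, in DMSO), while Cyp2a5 separates the genotypes in DMSO and Cyp2a4 does not.

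The partners of the P450 enzymes changed in parts. Of 8 tested electron donor genes, 3 fell in each comparison: Por, the reductase that serves the microsomal enzymes, Fdx1, the mitochondrial ferredoxin, and Cyb5b, a cytochrome b5. Over all tested genes, 12.2% to 17.3% fell in these comparisons. Por averaged 98.4 RPKM in PTKO AA 2wk and 189 in PTKO DMSO, and 108 in fl/fl AA 2wk and 199 in fl/fl DMSO (-0.94 ± 0.15 and -0.90 ± 0.15). At AA 2wk Fdx1 changed by -0.85 ± 0.13 in PTKO and -0.56 ± 0.13 in fl/fl. Cyb5r1, a cytochrome b5 reductase, rose in each, by 0.35 to 0.64. The 2 tested epoxide hydrolases moved apart: Ephx1, which opens epoxides of foreign compounds, averaged 219 RPKM in PTKO AA 2wk and 26.9 in PTKO DMSO, and 275 in fl/fl AA 2wk and 27.6 in fl/fl DMSO (2.97 ± 0.22 and 3.30 ± 0.22). Ephx2, which opens the epoxides of arachidonic acid, averaged 65.7 in PTKO AA 2wk and 235 in PTKO DMSO, and 69.7 in fl/fl AA 2wk and 236 in fl/fl DMSO (-1.92 ± 0.26 and -1.76 ± 0.26).

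Of the enzymes linked to aristolochic acid, Nqo1, which reduces it to its reactive form, was called lower in PTKO AA 2wk (26.7, against 42.9 RPKM in PTKO DMSO; -0.67 ± 0.25, adjusted p = 0.0293) and not in fl/fl AA 2wk (52.5, against 51.0 in fl/fl DMSO; -0.07 ± 0.25), and the interaction did not pass either (adjusted p = 0.938). It fell in both genotypes at AA 4wk (-0.97 ± 0.25 in PTKO and -0.86 ± 0.25 in fl/fl). The transporters of organic anions Slc22a6 and Slc22a8, which carry the toxin into the cell, fell in each comparison, with changes from -3.24 to -4.86 for Slc22a6 and from -2.07 to -3.75 for Slc22a8. Cyp1a1 and Cyp1a2, which detoxify it in liver, were under the threshold in this cortex.

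Among 25 tested regulators of P450 genes, 10 fell and 3 rose in PTKO AA 2wk, 11 fell and 6 rose in fl/fl AA 2wk, 10 fell and 8 rose in PTKO AA 4wk, and 11 fell and 8 rose in fl/fl AA 4wk. Over all tested genes, 14.3%, 12.2%, 17.3% and 14.3% fell in the same order, and 45.9%, 50.4%, 55% and 51.9% rose. Hnf4a, the nuclear receptor of proximal tubule and liver identity, averaged 136 RPKM in PTKO AA 2wk and 282 in PTKO DMSO, and 135 in fl/fl AA 2wk and 289 in fl/fl DMSO (-1.05 ± 0.17 and -1.13 ± 0.17). At AA 2wk Nr1h4, the bile acid receptor gene, changed by -0.97 ± 0.21 in PTKO and -1.26 ± 0.21 in fl/fl. Ppara averaged 16.6 RPKM in PTKO AA 2wk and 21.7 in PTKO DMSO, which did not pass the test (-0.40 ± 0.29, adjusted p = 0.251), and 18.8 in fl/fl AA 2wk and 30.6 in fl/fl DMSO, which did (-0.84 ± 0.29, 0.0211). Ahr, the aryl hydrocarbon receptor, rose by 0.60 ± 0.20 and 0.97 ± 0.20 at AA 2wk and by 1.32 ± 0.20 and 1.27 ± 0.20 at AA 4wk in PTKO and fl/fl. Cebpb, an injury-responsive transcription factor, rose by 1.71 to 2.08. None of these 4 lists had a call between the genotypes.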

How the data were processed

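The authors deposited RPKM values per gene and library, per the file header, in a table of 24062 genes by 18 libraries. Libraries were made with TruSeq Stranded Total RNA, per the labels' protocols. The submitters' processing notes name bcl2fastq 2.19, kallisto without a version, and build mm10; how reads were assigned to genes is not stated there. RPKM scales each library to its own total, so a fall of very abundant genes raises all others.

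Genes at 1 RPKM or more in 3 or more libraries (13624) were fitted in limma 3.58.1 (statmod 1.5.0, R 4.3.3) on log2(RPKM + 1), with 6 group means, trend and robust moderation, over 12 comparisons. A fold change on this scale understates that of low genes. Errors of fold changes are SE of the fit, and p-values are two-sided with Benjamini-Hochberg adjustment over all tested genes. The script was tested on simulated data. Steps between values gave whole reads for 17579 of 17579 genes above 0 in at least 6 libraries (100%, tolerance 0.02 reads); voom on these reads called 8253, 8661, 9747 and 9194 genes in PTKO AA 2wk, fl/fl AA 2wk, PTKO AA 4wk and fl/fl AA 4wk against DMSO.

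Deviations of same-numbered libraries correlated at 0.43 to 0.66 between the AA 2wk groups. Over all 45 pairs of libraries with the same number the range was -0.16 to 0.66, with 22 above 0.1. Both AA 2wk libraries numbered 3 stand apart, and deviations within a group of 3 are not independent. These correlations therefore do not establish that the numbers pair. The main fit used no block, and blocks by replicate number were run as other settings. No 2 libraries held identical values. Genes named are the 10 most abundant members, the 8 called members with the largest change in each direction per AA comparison, up to 5 per remodeling comparison, the 3 with the smallest p per genotype comparison without a call, and the vitamin D, retinoid, sterol, steroid and aristolochic acid lists. Members, lists and tests were chosen with earlier results of these data known. The ratio of Cyp2a5 to Cyp2a4 was added after their values were seen. Promoters came from RefSeq (GRCm38) for 26 members; shared 50-base words were counted in GENCODE vM21 transcripts for 38 members. Protein sequences were not used here.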

Additional observations from a re-analysis of the deposited data

How the results depend on the processing

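Over 31 settings, 4038 of 4185 values of named members kept their direction and side of the threshold, 110 lost the call, 30 gained it and 7 turned sign. The sign turned with quantile normalization for Cyp3a13 in fl/fl AA 2wk (-0.24), PTKO AA 4wk (-0.04) and fl/fl AA 4wk (-0.09), Cyp4f17 (-0.05) and Cyp39a1 (-0.01) in PTKO AA 4wk and Cyp2u1 in fl/fl AA 4wk (-0.32), and with median-of-ratios scaling for Cyp2j6 in fl/fl AA 4wk (-0.07). Quantile normalization left 5, 6, 4 and 4 higher calls (PTKO AA 2wk, fl/fl AA 2wk, PTKO AA 4wk, fl/fl AA 4wk), and median-of-ratios scaling 6 in fl/fl AA 4wk. In the same order, 46.7%, 44.8%, 44.5% and 43.8% of all calls were then higher with quantile normalization. As deposited these shares were 76.3%, 80.5%, 76.1% and 78.4%. For AA 4wk against AA 2wk in PTKO, quality weights gave 3 higher and 3 lower, the replicate block within AA 2wk 3 and 6, the replicate block over all libraries 2 lower, omission of both AA 2wk libraries numbered 3 gave 3 lower and a fit of only these groups 0; leaving out 1 library gave 0 to 3 higher and 0 to 5 lower. In fl/fl, quality weights gave 7 higher and 12 lower, the replicate block within AA 2wk 1 and 5, and leaving out 1 library 0 to 2 lower. For genotype at AA 2wk, quality weights gave 1 higher and 9 lower, each replicate block 1 lower, and leaving out 1 library 0 to 3 lower. At AA 4wk quality weights gave 5 lower, the block within AA 2wk 2 and omission of both libraries numbered 3 gave 2. Averaged over treatments, plain moderation gave 1 lower, weights 4, the block over all libraries 1, that within AA 2wk 2, omission of both libraries 1, and leaving out 1 library 0 to 1. The cause of these changes was not tested. The shares of all tested genes called in these settings are not given beside the counts, so the counts describe the members alone. Apart from these counts and the members named in the report, neither replicate block changed a call of a named member. Deviations of same-numbered libraries of other groups correlated at most at 0.34 (fl/fl AA 4wk and fl/fl DMSO, number 3). With 3 libraries a group, low members such as Cyp46a1 and Cyp3a13 rest on medians of 15 and 36 reads.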

Other observations

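Heme supply and breakdown, on which P450 enzymes depend, moved unevenly with the toxin. Of 13 tested genes, 5 fell and 3 rose in PTKO AA 2wk, 4 fell and 3 rose in fl/fl AA 2wk, 6 fell and 2 rose in PTKO AA 4wk, and 7 fell and 2 rose in fl/fl AA 4wk (limma, adjusted over all tested genes). The shares of all tested genes that fell were 14.3%, 12.2%, 17.3% and 14.3% in the same order. Those that rose were 45.9%, 50.4%, 55% and 51.9%. The late synthesis enzymes Cpox, Fech and Uros fell in each comparison. Cpox averaged 19.5 RPKM in PTKO AA 2wk and 47.0 in PTKO DMSO, and 21.3 in fl/fl AA 2wk and 41.4 in fl/fl DMSO (-1.24 ± 0.12 and -0.93 ± 0.12). Hmox1, which breaks heme down, averaged 70.2 in PTKO AA 2wk and 35.8 in PTKO DMSO, and 64.9 in fl/fl AA 2wk and 30.7 in fl/fl DMSO (0.95 ± 0.13 and 1.03 ± 0.13), and Blvrb, a biliverdin reductase, rose by 0.49 to 0.82. Alas1, the rate-limiting enzyme, rose in PTKO AA 2wk (0.67 ± 0.24, adjusted p = 0.0269) and fell in fl/fl AA 4wk (-0.63 ± 0.24, adjusted p = 0.0328); the other AA changes of Alas1 were not called, and no heme gene was called between genotypes or in an interaction.

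Of 7 non-P450 genes that are higher in male than in female mouse kidney, 7 fell in PTKO AA 2wk, 6 in fl/fl AA 2wk, 7 in PTKO AA 4wk and 6 in fl/fl AA 4wk, with median log2 changes of -4.46, -2.97, -4.15 and -4.25. Over all tested genes, 14.3%, 12.2%, 17.3% and 14.3% fell in the same comparisons. The summed RPKM of the 7 genes was 1670.2, 696 and 441 in PTKO AA 2wk and 5362, 1457 and 2063 in fl/fl AA 2wk, against 45939 to 51983 in PTKO DMSO and 40313 to 52189.9 in fl/fl DMSO. Kap and Slc7a13 are also in the proximal tubule list.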
